A study of Mus musculus with 4 samples.

Results

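Binding of Pcbp1 around the genes of branched-chain amino acid degradation was described from ChIP-seq peaks of the mouse embryonic stem cell line E14 Tg2a. Pcbp1 is a protein that recognises C-rich RNA and DNA. The group has 9 genes, Bcat1, Bcat2, Bckdha, Bckdhb, Dbt, Bckdk, Ivd, Mccc1 and Mccc2, out of 21887 protein-coding genes of the RefSeq annotation used. Every deposited peak whose summit lay within 50 kb of the annotated body of one of them was taken, which gave 21 of the 12132 peaks of the naive list (Naive below) and 6 of the 3494 peaks of the primed list (EpiLC below). The peaks were chosen by gene name and position, not by their height, but the 9 genes were named with results of these data known.

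The Naive library came from cells kept without serum for 3 passages in LIF, 1 uM PD0325901 (a MEK inhibitor) and 3 uM CHIR99021 (a GSK3 inhibitor). The EpiLC library came from such cells cultured for 48 hours with 12 ng/ml bFGF and 20 ng/ml Activin A, with knockout serum replacement, on fibronectin, which yields epiblast-like cells, a culture model of primed pluripotency. Both states were of 1 parental cell line, and chromatin was sheared to about 500 bp. Each state had 1 Pcbp1 ChIP library and 1 input library, so no value below carries an error between cultures and no test between the states was possible. Intervals are 95% Poisson intervals of the reads at a summit and cover counting error only.

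Leucine, isoleucine and valine are broken down by a common start and separate ends. The aminotransferases Bcat1, in the cytosol, and Bcat2, in mitochondria, move the amino group to alpha-ketoglutarate and so make glutamate. The mitochondrial branched-chain ketoacid dehydrogenase complex then removes the carboxyl group in a step that cannot be reversed. Bckdha and Bckdhb encode the subunits of its decarboxylase and Dbt its transacylase core, while the kinase Bckdk switches the complex off by phosphorylating the Bckdha product. Ivd, the isovaleryl-CoA dehydrogenase, and Mccc1 and Mccc2, the subunits of the biotin-dependent methylcrotonyl-CoA carboxylase, act further along the leucine branch.

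Gene-end peaks were found at genes of the common first steps. Of the 6 genes of transamination, the dehydrogenase and its kinase, 5 had a Naive peak with its summit within 1 kb of an annotated gene end (Bcat1, Bcat2, Bckdha, Dbt and Bckdk), and Bckdhb had none. Measured to RefSeq starts in place of gene ends, the count was 3 (Bcat1, Bckdha and Bckdk), since the Bcat2 peak lay farther from its starts and Dbt was not in the table of starts. The share of all genes on that measure is not given here. Of the 3 leucine-branch genes, 0 had a gene-end peak in either list. Over the 9 genes this made 5 in Naive and 1, Bckdha, in EpiLC, against 19.3% (Naive) and 5.61% (EpiLC) of all protein-coding genes. In Naive alone such a peak was found at 4 of the 9, against 15.2% of all genes, and in both lists at 1, against 4.09%. The 9 genes were named with results of these data known, and the counts are descriptions. In particular, 0 of 3 leucine-branch genes cannot be set apart from these shares.

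4 stretches of 250 bases before a RefSeq start are shown, since they mark where peaks lay and where none did. They are written 5′ to 3′ on the gene's strand, from RefSeq promoter windows of GRCm38.p6, and capitals mark runs of CCCC or, for the other strand, GGGG, the kind of C-rich run that poly-C-binding proteins are known for. The Bckdha stretch lay whole under a Naive peak. The main Bcat1 start lay between a pair of Naive peaks and the second Bcat1 start under another. Mccc1 had no peak within 50 kb.
Bckdha, minus strand, chr7:25658762-25659011: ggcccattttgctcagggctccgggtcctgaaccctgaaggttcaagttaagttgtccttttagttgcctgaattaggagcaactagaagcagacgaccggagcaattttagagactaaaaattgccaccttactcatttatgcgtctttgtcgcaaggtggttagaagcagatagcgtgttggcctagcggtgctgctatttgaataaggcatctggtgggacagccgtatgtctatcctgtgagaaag
Bcat1 main start, minus strand, chr6:145076158-145076407: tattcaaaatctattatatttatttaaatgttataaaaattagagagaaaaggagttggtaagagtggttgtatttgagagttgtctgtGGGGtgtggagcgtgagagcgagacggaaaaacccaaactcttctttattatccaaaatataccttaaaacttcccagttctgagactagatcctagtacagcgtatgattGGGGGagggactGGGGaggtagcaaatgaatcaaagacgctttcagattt
Bcat1 second start, minus strand, chr6:145048813-145049062: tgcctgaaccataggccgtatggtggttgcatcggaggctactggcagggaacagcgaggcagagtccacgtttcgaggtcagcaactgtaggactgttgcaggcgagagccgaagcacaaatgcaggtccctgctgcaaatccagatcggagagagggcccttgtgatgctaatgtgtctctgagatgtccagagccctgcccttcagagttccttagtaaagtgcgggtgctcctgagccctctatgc
Mccc1, minus strand, chr3:36000679-36000928: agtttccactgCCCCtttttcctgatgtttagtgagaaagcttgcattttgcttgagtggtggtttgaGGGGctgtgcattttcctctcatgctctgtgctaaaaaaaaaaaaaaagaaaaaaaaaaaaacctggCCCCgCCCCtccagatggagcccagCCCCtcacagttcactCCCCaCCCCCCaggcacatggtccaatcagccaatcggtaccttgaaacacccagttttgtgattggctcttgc

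In the 4 stretches shown, CCCC was missing where the start lay under a Naive peak and present at the others. So few stretches settle nothing beyond themselves. CCCC on either strand, with overlapping matches counted separately, was found at 9 positions before Mccc1 and at 4 before the main Bcat1 start. Mccc1 had the most of all starts of the group. Mccc2, likewise without a Naive peak within 50 kb, held 0. The Bckdha stretch and the one at the second Bcat1 start, both of which belong to starts under a Naive peak, held 0. The stretches themselves were covered unequally. Of their 250 bases, 250 lay under a Naive peak at Bckdha but 26 at the second Bcat1 start. At the main Bcat1 start it was 76, and at Mccc1 0. Among all 21263 such stretches of protein-coding genes, 85.3% held CCCC on either strand. The share was 89.6% of the 1993 whose start lay under a Naive peak and 84.9% of the other 19270. CCCTCC, a longer C-rich word that can overlap CCCC by at most 3 bases, was found on either strand in 39.5% of stretches of protein-coding genes. Its share went the other way, with 34.1% where the start lay under a Naive peak and 40.1% elsewhere. Among the 9 genes it was found at 1 position each before Bckdhb, Ivd, Mccc1 and the main Bcat1 start. In all, 8 of the 9 genes were matched in the promoter table, with 11 starts, of which 7 had CCCC and 4 had CCCTCC. The G and C content of the 11 stretches ran from 36.4% to 63.2% with a median of 50.4%, beside a median of 55.6% for protein-coding genes. For protein-coding genes the median was 58.4% where the start lay under a Naive peak and 55.2% elsewhere. Whether this bears on the shares of CCCC and CCCTCC was not tested. A match is a string of letters and not a binding site.

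Bcat1 (chromosome 6, 144993835 to 145076157) held the highest fold of the group and no EpiLC peak. Its 5 Naive peaks had folds of 3.99, 7.21, 3.99, 5.48 and 9.63 in order of rising coordinate, where a fold is the height at the summit over the local background, as the authors' caller wrote it. Among all protein-coding genes, 6.37% had at least 5 Naive summits within 50 kb, and the median gene had 1. Bcat1 is transcribed towards lower coordinates, so the last of these peaks lies before its start and the first lies far inside the gene.

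The strongest of them (145079401 to 145079866) had its summit 3526 bp upstream of the main Bcat1 start and a fold of 9.63 (7.34 to 12.4) from a height of 57 reads, which 2.79% of Naive peaks reached. No other gene of any class in the annotation began or ended nearer to it. Around the start itself, the summits lay 367 bp upstream (fold 5.48, 3.80 to 7.67) and 256 bp downstream (fold 3.99, 2.71 to 5.67), and the start fell in a gap of 211 bp between both peaks. At least 2 Naive summits within 1 kb of the same gene end were found at 398 of the 4230 genes with a Naive gene-end peak, or 9.41%, which is 1.82% of all genes. In EpiLC no member had such a pair, and 0.196% of all genes did.

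Inside Bcat1, a further peak (145061419 to 145061724) had a fold of 7.21 (5.13 to 9.87), above 91.3% of the Naive list. It lay 14612 bp into the gene, and the nearest annotated end was that of the lncRNA gene Gm26666 at 1591 bp. The innermost peak (145048603 to 145048838; fold 3.99, 2.54 to 5.997) spanned the second RefSeq start of Bcat1 at 145048812, with its summit 90 bp downstream of it. The annotation used holds gene bodies and starts without exons, so none of these peaks is placed in an exon or an intron.

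The nearest EpiLC summit lay 231838 bp from the body of Bcat1. Of the 339 Naive peaks with a fold of at least 9.63, 107 (31.6%) overlapped an EpiLC peak, so the lack of one at the strongest Bcat1 peak was the commoner case. A site could also go uncalled: where the EpiLC background was like that at the 6 EpiLC peaks of the group, the lowest fold in the EpiLC list was 2.16. A peak missing from a list does not show that Pcbp1 was absent.

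**Figure D1:**
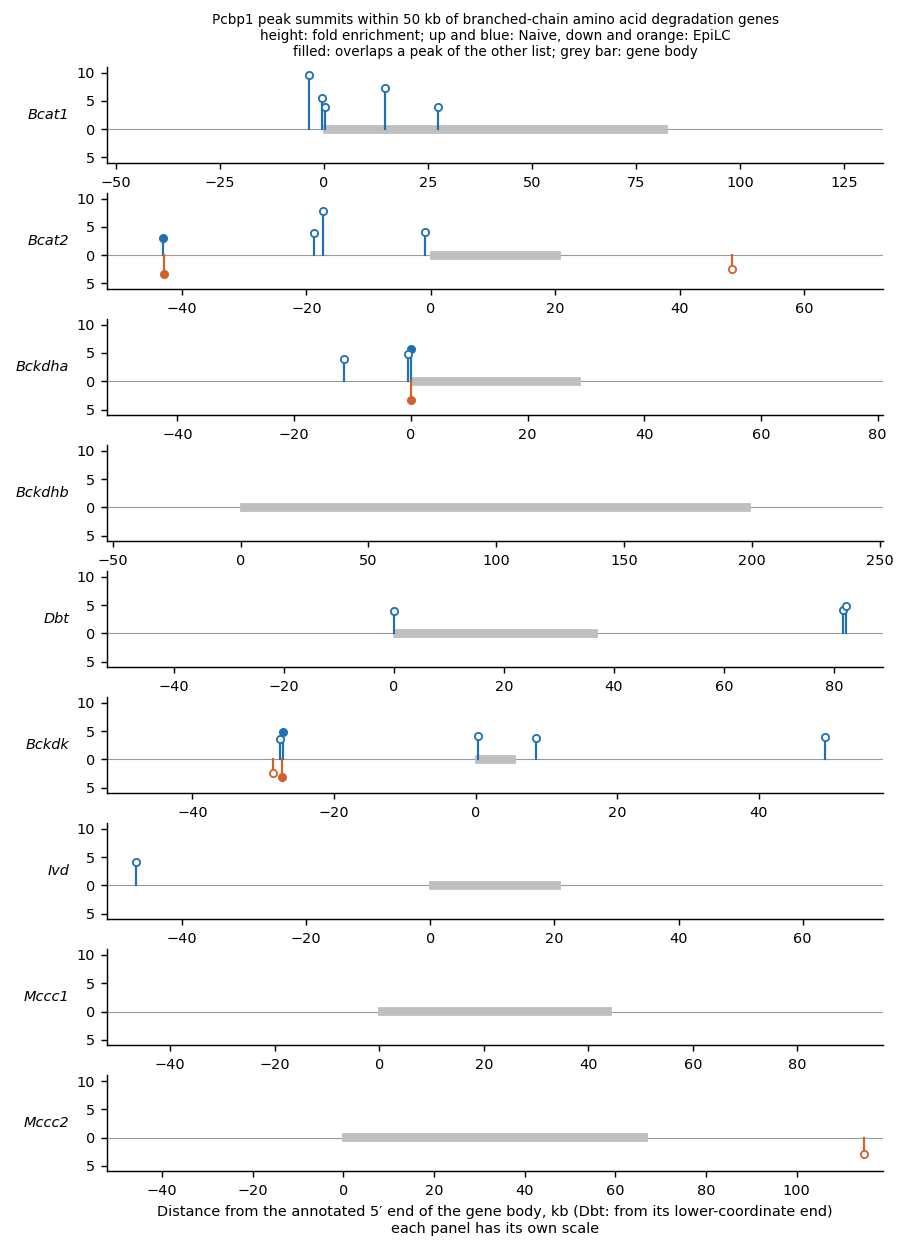
Summits of all peaks within 50 kb of the 9 genes, drawn by distance in kb from the 5′ end of each gene body (grey bar) in the direction of transcription, or from the lower-coordinate end for Dbt. Stem height is the fold enrichment, up for Naive and down for EpiLC, and filled heads overlap a peak of the other list; Bcat1 shows 5 Naive stems up to 9.63 and no EpiLC stem, and Bckdhb and Mccc1 show no stem.

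Bcat2 (chromosome 7, 45568967 to 45589710) had 4 Naive and 2 EpiLC peaks within 50 kb, none of them inside the gene. The Naive peak nearest to it (45567733 to 45568580; fold 4.15, 2.72 to 6.10) had its summit 884 bp before the annotated end and 762 bp from the end of Hsd17b14, a steroid dehydrogenase gene. It also lay 288 bp from an end of the lncRNA gene 0610005C13Rik, and the nearest RefSeq start of Bcat2 in the promoter table was 2070 bp away, so it cannot be assigned to Bcat2 by position. The highest peak of the window, at 7.78 (5.61 to 10.5), lay inside Plekha4, a pleckstrin homology domain gene, 17302 bp from Bcat2, with a lower one of 3.99 (2.54 to 5.997) beside it. Neither overlapped an EpiLC peak.

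Both lists met at Ppp1r15a, the gene of a stress-induced subunit of the phosphatase that acts on the translation factor eIF2alpha. Its peak, 43095 bp from Bcat2 in Naive, stood at a Naive fold of 3.07 (1.91 to 4.70) and an EpiLC fold of 3.29 (2.39 to 4.42). The other EpiLC peak (45617256 to 45617601; fold 2.47, 1.77 to 3.35) lay 147 bp from an end of the fucosyltransferase gene Fut1 and 27749 bp beyond the far end of Bcat2, with no Naive peak over it.

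Bckdha (chromosome 7, 25629852 to 25658782) was the one gene of the group with a gene-end peak in both lists. The Naive peak (25658689 to 25659016) reached 36 reads and a fold of 5.67 (4.02 to 7.79), and the EpiLC peak (25658726 to 25658975) reached 60 reads and 3.37 (2.59 to 4.33). Their summits lay 11 bp apart, 56 and 45 bp upstream of the RefSeq start at 25658761, and both peaks spanned that start. Of the 250 bases before it, shown above, 250 lay under the Naive peak and 214 under the EpiLC peak. Of the 4230 genes with a Naive gene-end peak, 895 had one in EpiLC, or 21.2%.

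This start lies back to back with that of Exosc5, a gene of the RNA exosome, whose annotated body begins after 370 bp. A second Naive peak (25659216 to 25659493; fold 4.85, 3.23 to 7.02) had its summit inside Exosc5, 205 bp from its end and 576 bp from that of Bckdha. It overlapped no EpiLC peak, so of the pair of Naive peaks in this shared region the one at the Bckdha start was the one found again. The remaining Naive peak of the window, at 3.87 (2.49 to 5.78), lay inside Tmem91, 11423 bp from Bckdha.

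The partner subunit gene Bckdhb (chromosome 9, 83925111 to 84124240) had no peak in either list within 50 kb, although its body is the longest of the group at 199130 bp. Its nearest Naive summit was 90705 bp away and its nearest EpiLC summit 949265 bp. No summit of either list within 50 kb was found for 37.9% of all protein-coding genes.

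Dbt (chromosome 3, 116513070 to 116549981) had a Naive peak across its lower-coordinate end (116512885 to 116513308), with a fold of 3.99 (2.54 to 5.997) and the summit 51 bp inside the gene. No other coding gene ended within 1 kb of this peak. The other pair of Naive peaks in its window, at 4.19 (2.63 to 6.36) and 4.85 (3.23 to 7.02), flanked an end of Sass6, a centriole assembly gene, at 205 and 213 bp. They lay 44752 and 45170 bp from Dbt, inside or at the neighbours Sass6 and Trmt13, the latter a tRNA methyltransferase gene. Dbt had no EpiLC peak within 50 kb, and its nearest EpiLC summit was 477194 bp away.

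Bckdk (chromosome 7, 127904073 to 127909664), the shortest gene of the group at 5592 bp, had 5 Naive and 2 EpiLC peaks in its window. The peak in the gene (127904148 to 127904576; fold 4.14, 2.66 to 6.17) began 75 bp downstream of the RefSeq start, with its summit at 296 bp, and was found in Naive alone. The other 4 Naive peaks belonged by position to neighbours or to no gene. One of 3.85 (2.50 to 5.69) lay inside Kat8, a histone acetyltransferase gene, 119 bp from its end, and one of 3.996 (2.49 to 6.13) lay between genes, 6677 bp from the protease gene Prss36.

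At Zfp668, a zinc finger gene 27254 bp away that adjoins Zfp646 (the Naive summit lay 17 bp from an end of the first and 95 bp from an end of the second), peaks of both lists overlapped. The Naive fold was 4.82 (3.26 to 6.89) and the EpiLC fold 3.19 (2.40 to 4.17), with summits 80 bp apart. A lower Naive peak of 3.62 (2.28 to 5.50) and a lower EpiLC peak of 2.35 (1.67 to 3.21) stood beside it, each in 1 list only.

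Of the 3 leucine-branch genes, 1 had a Naive summit within 50 kb and 1 an EpiLC summit. Over all protein-coding genes the shares were 58.1% and 26.3%, and 37.9% had neither. So few genes cannot be set apart from these shares. Ivd (chromosome 2, 118861959 to 118882909) had 1 Naive peak in its window, at 4.13 (2.60 to 6.28), which lay 47481 bp away inside the kinetochore gene Knstrn. Mccc1 (chromosome 3, 35956292 to 36000694) had none in either list, with its nearest Naive summit 65320 bp and its nearest EpiLC summit 507891 bp from the gene. Mccc2 (chromosome 13, 99948532 to 100015639) had 1 EpiLC peak and no Naive one. That peak (99900354 to 99900770; fold 2.86, 1.97 to 4.02) lay 47810 bp from Mccc2, inside Cartpt, a neuropeptide precursor gene, 39 bp from a RefSeq start of it. The Ivd and Mccc2 windows therefore entered the count only through peaks near their outer edge.

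Counted over the windows, 6 of the 9 genes had a Naive summit within 50 kb, against 58.1% of all protein-coding genes, and 4 had an EpiLC summit, against 26.3%. Of the 21 Naive peaks, 7 lay within 1 kb of an end of one of the 9 genes (33.3%, 95% exact binomial interval 14.6 to 56.97), another 7 at an end of a neighbour, 2 inside Bcat1, 3 inside neighbours and 2 between genes. Ends of any protein-coding gene thus held 14 of the 21 (66.7%, 43.03 to 85.4), against 31.7% of the whole Naive list. The windows were drawn around genes, while the lists cover the genome. Of the 6 EpiLC peaks, 1 lay at an end of a member, 3 at an end of a neighbour and 2 inside a neighbour, so that 4 of 6 (66.7%, 22.3 to 95.7) lay at an end of any protein-coding gene, against 31.0% of the EpiLC list. Measured to RefSeq starts instead, a measure chosen after the values were seen, all 6 EpiLC peaks lay within 216 bp of a start (30.2% of the EpiLC list lay within 1 kb of one). In Naive this was so within 1 kb for 13 of 21, against 30.8% of the list.

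Ranked by fold, the Naive peaks of the group spread over most of their list, from percentile 5.51 to 97.2. The EpiLC peaks all lay under the median of theirs. The 21 Naive folds ran from 3.07 to 9.63 with a median of 4.14, beside 4.43 for all Naive peaks, and 8 stood above that list median. A fold of at least 5 was reached by 5 of the 21 and by 32.8% of the Naive list. The 6 EpiLC folds ran from 2.35 to 3.37 with a median of 3.03, beside 3.41 for all EpiLC peaks, and 0 stood above that list median or reached a fold of 5, which 12.4% of the EpiLC list did.

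**Figure D2:**
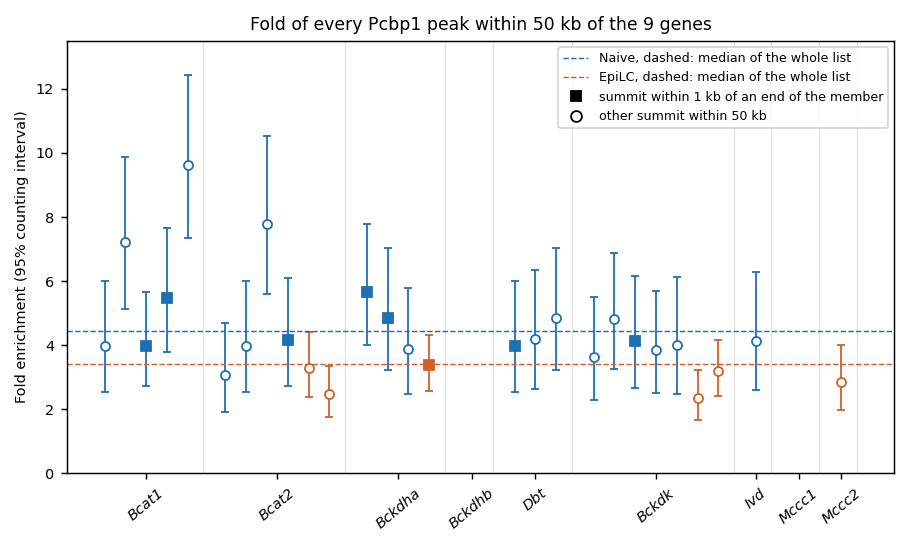
Fold enrichment of each of the 27 peaks with its 95% Poisson counting interval, grouped by gene, with Naive in blue and EpiLC in orange; filled squares are summits within 1 kb of an end of the gene, open circles other summits within 50 kb, and dashed lines the medians of the whole lists (4.43 and 3.41). All 6 EpiLC points lie under the EpiLC median, and the Naive points at 7.21, 7.78 and 9.63 have intervals wholly above the Naive median.

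The lists were not equally long, and this bears on every count here. With the Naive list shortened to its 3494 peaks of lowest p-value, 5 Naive peaks were left around the 9 genes, against 6 in EpiLC: the upstream, start and inner peaks of Bcat1 (9.63, 5.48 and 7.21), that in Plekha4 and that at the Bckdha start. Gene-end peaks then remained at 2 genes, Bcat1 and Bckdha. Shares of all genes under the shortened list are not given here, so these counts have no background beside them.

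The shares of overlapping peaks lay close to those of the whole lists. Of the 21 Naive peaks, 3 overlapped an EpiLC peak (14.3%, exact binomial interval 3.05 to 36.3), against 13.7% of all Naive peaks, and of the 6 EpiLC peaks 3 overlapped a Naive one (50%, 11.8 to 88.2), against 48.3%. The shared peaks were those at the Bckdha start, Ppp1r15a and Zfp668. They were also the 3 of the 6 EpiLC peaks with a −log10 q of at least 5.

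At these 3 shared sites, the deposited folds and the read heights gave different pictures. The EpiLC fold was 0.595 times the Naive fold at Bckdha, 0.663 times at Zfp668 and 1.07 times at Ppp1r15a, and the median over all 1689 overlapping pairs was 0.670. The local background stood 2.30 times above the genome-wide level in EpiLC and 1.38 times above it in Naive at Bckdha. At Zfp668 it stood 2.10 and 1.25 times above it, and at Ppp1r15a, where the EpiLC fold was the higher one, 1.62 and 1.38 times.

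With the height set over the genome-wide background of each list, Bckdha reached 7.39 (5.24 to 10.2) in Naive and 7.23 (5.55 to 9.28) in EpiLC. Zfp668 then had 5.79 (3.92 to 8.29) and 6.29 (4.72 to 8.21), and Ppp1r15a 3.996 (2.49 to 6.13) and 5.10 (3.71 to 6.85). The intervals of both states overlapped at all 3 sites on this scale, and also on the scale of deposited folds. Over all pairs the median ratio on this scale was 0.989 (quartiles 0.831 and 1.17). The local background was thus higher in EpiLC at all 3 sites, with a lower EpiLC fold at 2 of them, and whether the caller's background reflects the input library or the ChIP library was not tested.

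**Figure D3:**
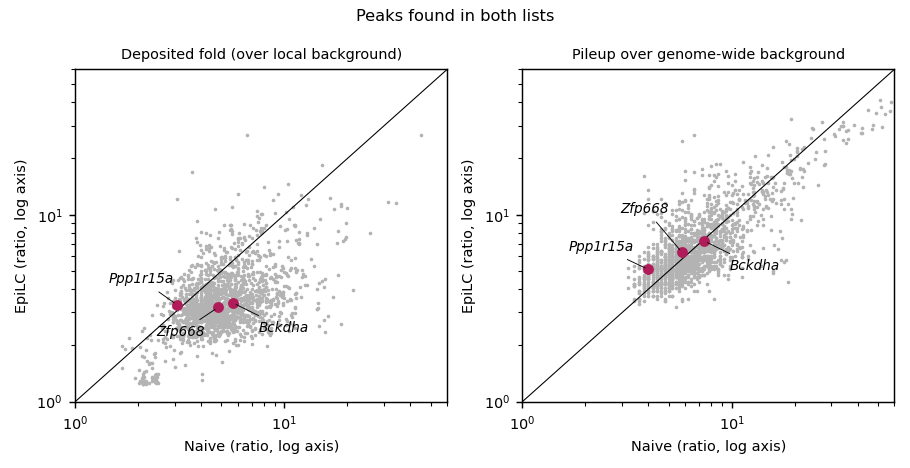
EpiLC against Naive values of the 1689 overlapping peak pairs (grey, log axes, line of equality), with the 3 pairs near the 9 genes named by the closest coding gene. Left, deposited folds over the local background; right, summit pileup over the genome-wide background, where Bckdha lies at 7.39 and 7.23, close to the line.

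Other genes of the pathway showed a like share of gene-end peaks. Of 27 further genes of branched-chain amino acid breakdown and the steps it feeds, 14 had a Naive gene-end peak and 1 an EpiLC one, against the same 19.3% and 5.61% of all genes. Together with the 9 this made 19 and 2 of 36, with a median Naive fold of 4.15 at the highest gene-end peak. With the Naive list shortened, 5 of the 36 were left in Naive. The share of all genes under the shortened list is not given here, and the 19.3% belongs to the full list.

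By branch, propionyl-CoA disposal, to which isoleucine and valine lead, had 4 of 6 genes with a Naive gene-end peak. Among these were Pccb, a propionyl-CoA carboxylase subunit, at 5.79 (3.92 to 8.29), and the cobalamin genes Mmaa at 5.40 (3.59 to 7.81) and Mmab at 4.996 (3.27 to 7.34), the last at a peak shared with Mvk. The valine branch had 2 of 5 genes, the isoleucine branch 1 of 3 and the electron transfer genes that accept electrons from Ivd and its relatives 2 of 3, with Etfa at 4.996 (3.27 to 7.34). Neither Dld, which encodes the remaining subunit of the dehydrogenase complex, nor Ppm1k, the phosphatase that opposes Bckdk, had a peak at its ends in Naive or in EpiLC.

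The highest gene-end fold of the 36 genes lay between Hadha and Hadhb, the neighbouring genes of the mitochondrial trifunctional protein of fatty acid oxidation. A single Naive peak of 7.81 (5.76 to 10.4) lay 146 bp from the start-side end of Hadha and 127 bp from that of Hadhb. Hadha was the one further gene with an EpiLC gene-end peak, at 5.09 (3.88 to 6.57) and 735 bp from the same end, and the Naive and EpiLC peaks did not overlap.

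**Figure D4:**
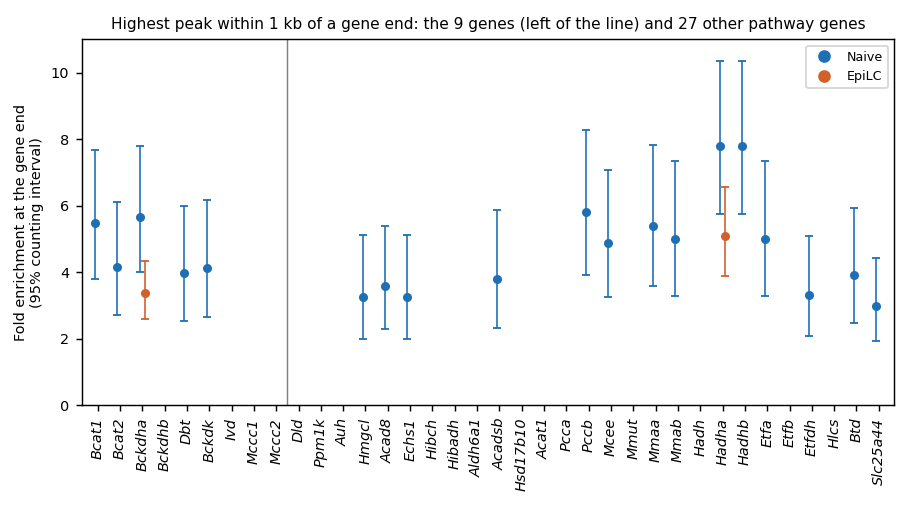
Highest fold within 1 kb of a gene end, with its 95% counting interval, for the 9 genes (left of the line) and 27 other pathway genes, with Naive in blue and EpiLC in orange. Genes without a point had no gene-end peak; EpiLC points stand at Bckdha and Hadha, and the Naive points of Hadha and Hadhb are the same peak.

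The series as a whole gives these values their setting. The genome-wide background, read from the peaks, was 4.004 reads in Naive and 7.43 in EpiLC, so the shorter list had the higher background, and the 27 peaks rest on 19 to 57 reads in Naive and 31 to 60 in EpiLC. Total reads per library were not analysed here. A peak list carries no expression, so the labelled states could be looked at only by binding at marker genes. A gene-end peak was found at 8 of 10 naive markers in Naive and 1 in EpiLC. It was found at 0 of 9 primed markers in Naive and 6 in EpiLC, and at 0 and 1 of 8 fibroblast markers. Of all protein-coding genes, 19.3% and 5.61% had one. Within 50 kb the markers were less clearly divided. A summit lay there for 10 (Naive) and 3 (EpiLC) naive markers, 6 and 9 primed markers, and 5 and 2 fibroblast markers. For all protein-coding genes this was 58.1% and 26.3%.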

How the data were processed

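The authors deposited 1 peak list per state, each from 1 Pcbp1 ChIP library. Per the submitters' processing notes, fastp, Bowtie2, Picard and MACS2 and build GRCm38 (mm10) were used, without versions or roles; the caller's control, too, was not given in the sources used here. Deposited values are a fold ratio over local background, a −log10 p-value and a −log10 q-value per peak, an integer score that was not used, and the summit offset (the summit is column 2 plus column 10). The lowest deposited −log10 q was 2.02 in both lists.

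Reads at each summit were recovered by taking the fold to be (pileup + 1) / (background + 1) and the p-value to be a Poisson tail; a whole pileup met both, to 0.001 in −log10 p, for 100% of peaks. The lowest background of a list was taken as genome-wide. Peaks sharing 1 bp or more counted as overlapping; where several peaks overlapped, the highest fold was used. Genes and starts came from RefSeq tables of GRCm38.p6. A gene-end peak has its summit within 1 kb of either annotated end. Code ran in Python 3.11.15 with matplotlib 3.10.9, scipy 1.17.1, pandas 2.3.3 and numpy 2.4.6 and was tested on simulated data.

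All 9 genes, each peak near them and the nearest coding gene are named; of the other pathway genes, those with an EpiLC gene-end peak and the 5 highest in Naive, with ties. The members, lists and rules were chosen with earlier results of these data known. With 1 library per state no test was run. Alternatives were stricter thresholds, a shortened Naive list, other windows, other overlaps, another background and, chosen after seeing the data, RefSeq starts in place of gene ends.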

Additional observations from a re-analysis of the deposited data

How the results depend on the processing

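No paired analysis was possible because each state had 1 ChIP library and no result comes from a test. Among values under alternatives, 30 stayed within the limits set (1.5 times for counts, the counting interval for folds) and 24 moved. At a fold of at least 5, the 9 genes kept 5 Naive and 0 EpiLC peaks, at 3 and 0 genes, with gene-end peaks at 2 and 0 genes and 0 overlaps in either direction, and of the 36 pathway genes 6 (Naive) and 1 (EpiLC) had one. With the Naive list shortened to 3494 peaks, 5 Naive peaks at 3 genes were left, 2 genes had a gene-end peak, 1 peak overlapped between the lists, seen from either, and 5 pathway genes had a Naive gene-end peak. At a −log10 q of at least 5, 3 EpiLC peaks were left, and 12 pathway genes kept a Naive gene-end peak. Within 10 kb of the genes lay 11 Naive peaks and 1 EpiLC peak, the latter at 1 gene. Within 500 bp of gene ends, 1 pathway gene had an EpiLC peak. With RefSeq starts in place of gene ends, 3 of the 9 genes had a Naive peak: Bcat2 lay too far and Dbt was not in the table. Over the genome-wide background, the median EpiLC fold of the group was 4.92 in place of 3.03. Fewer peaks or a smaller window give lower counts by construction. Shares of all genes under these alternatives are not given here. In Naive, 14 reads over the genome-wide background were the fewest called, and in EpiLC 23, so weaker sites were not detectable at this depth.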

Other observations

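Twin summits at one gene end were seen at 2 of the 5 members with a Naive gene-end peak: Bcat1, whose start lay in the gap between them, and Bckdha, whose second peak lay in Exosc5. Over all genes with a Naive gene-end peak this was so for 9.41%, and for 43 protein-coding genes in EpiLC. Sass6, in the Dbt window, and Zfp668, in the Bckdk window, also had a pair of Naive summits within 1 kb of an end. These sites were picked after their values were seen.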
